A study of Mus musculus with 15 samples.

Results

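The comparison here is between Rb/p53 mouse lung tumours with the highest and the lowest RNA level of Mycl, across all other genes. The sets were chosen by the measured Mycl level alone: the 10 Rb/p53 tumours were ranked by the log2 value of the brightest Mycl probe set, which is the 1 of its 3 probe sets with the highest mean over all 15 arrays. The 4 highest (tumours 9, 4, 2 and 3) are called Mycl-high and the 4 lowest (tumours 8, 10, 7 and 6) Mycl-low. Tumours 5 and 1 lie between them and are called the middle tumours. They are not treatment groups, and the difference in Mycl itself is a description and has no test.

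The series compared mouse models of small cell lung cancer (SCLC), a neuroendocrine lung cancer, on Affymetrix whole-genome mouse arrays. All 10 ranked tumours had the genotype RbΔ/Δ; p53 Δ/Δ and were dissected 8 to 12 months after mice had breathed in an adenovirus that carries Cre recombinase. A further 3 tumours, numbered 11, 12 and 13, carried p130 Δ/Δ as well as the Rb and p53 deletions (called triple knockout) and were taken at 6 months. The other 2 arrays held wild-type, tumour-free adult lung. Cre came from the virus, and the labels name no cell type to which it was restricted and do not say which tumours came from separate mice. All p-values therefore measure the spread between these samples, which may be technical in part. Dissected tumour is a mixture of cells, so fewer cells of a type and less RNA per cell cannot be told apart.

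Mycl encodes L-MYC, a member of the MYC family of transcription factors. MYC proteins bind DNA as a pair with MAX, most tightly at the E-box CACGTG, and are known for raising the output of genes for ribosome assembly, nucleotide synthesis and metabolism. Mycl, Mycn and Myc are each amplified in some SCLC, and deletion of Mycl slows tumour growth in the mouse model.

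Levels are RMA log2 values, so a difference of 1 is a doubling of signal. In the order of the rank, Mycl stood at 13.36, 13.16, 12.34 and 11.86 in the Mycl-high tumours 9, 4, 2 and 3. The middle tumours 5 and 1 stood at 11.57 and 10.67. The Mycl-low tumours 8, 10, 7 and 6 stood at 10.42, 10.41, 10.39 and 9.39. Tumour 6 was lowest by a wide step, and the other 3 low tumours were nearly level with each other. The mean was 12.68 ± 0.70 (SD, n = 4) in the Mycl-high and 10.15 ± 0.51 (SD, n = 4) in the Mycl-low set, a difference of 2.53 or 5.77-fold.

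The borders of the sets are not wide gaps in the data. A wider step of 0.90 lies between the middle tumours, and the widest, 1.00, between tumours 7 and 6. Tumour 3, the lowest member of the Mycl-high set, was 0.29 above tumour 5, which was left out. Tumour 8, the highest member of the Mycl-low set, was 0.25 below tumour 1, also left out. All 10 tumours were above the normal lungs, which stood at 8.76 and 8.55. The triple knockout tumours 11, 13 and 12 stood at 12.46, 11.82 and 10.86 and so lay inside the range of the Rb/p53 tumours. The 2 dimmer Mycl probe sets named the same 4 highest tumours. Both put tumour 1 among the 4 lowest in place of tumour 8, which read 7.10 against 6.25 in tumour 1 on the second brightest probe set.

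**Figure D1:**
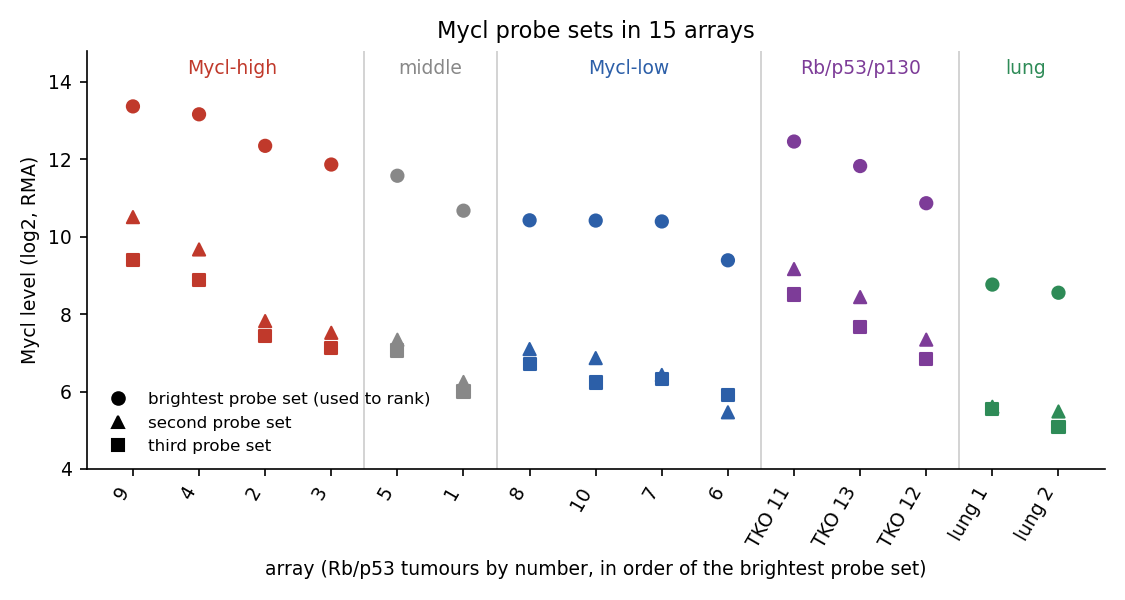
The level of the 3 Mycl probe sets (log2, vertical axis) in each of the 15 arrays, with the Rb/p53 tumours in the order of their rank; circles are the brightest probe set, which made the rank, triangles and squares the other 2, and TKO marks triple knockout tumours. On the brightest, the 4 Mycl-high tumours lie between 11.86 and 13.36, the 4 Mycl-low tumours between 9.39 and 10.42, and the middle tumours, at 11.57 and 10.67, lie near the borders of the sets.

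Both sets carried the neuroendocrine programme that marks SCLC. Over 27 measured neuroendocrine genes the mean level per tumour ran from 10.43 to 10.73 in the Mycl-high and from 10.38 to 11.13 in the Mycl-low tumours, against 6.24 and 6.43 in the lungs. Insm1, a transcription factor of neuroendocrine cells, was at 10.27 or more in each of the 8 tumours and at 4.40 and 4.58 in the lungs. The label of these tissues was thus borne out in both sets.

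No gene passed the test between the sets. Of 18192 genes, each read through its brightest probe set, 0% were called higher and 0% lower at a limma adjusted p under 0.05. The smallest adjusted p was 0.125, for Ppfia2. At an unadjusted p under 0.05 there were 750 genes (4.12%), with 353 higher (1.94%) and 397 lower (2.18%) in the Mycl-high set. The 4 Mycl-high values lay all above or all below the 4 Mycl-low values for 506 genes (2.78%), 251 of them higher (1.38%) and 255 lower (1.4%). An exact rank-sum test, whose smallest possible p is 0.0286 with 4 against 4 samples, called 0 genes after adjustment and had the same 506 genes under an unadjusted p of 0.05. A fit of each gene on the Mycl level over all 10 tumours, which needs no borders, also called 0% at an adjusted p under 0.05, with 766 genes (4.21%) at an unadjusted p under 0.05 and a smallest adjusted p of 0.610.

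The size of the differences bears on how this reads. The median over all genes was 0.0018, the median absolute difference was 0.14, and the median standard error of a gene was 0.19 (quartiles 0.14 and 0.29). Differences of 1 or more were found in 258 genes (1.42%), of which 99 were higher (0.544%) and 159 lower (0.874%). Across genes, which are not independent replicates, the mean correlation between arrays was 0.971 over 6 pairs within the Mycl-high set, 0.958 over 6 pairs within the Mycl-low set and 0.966 over 16 pairs between the sets, so the mean between the sets lay between those within them.

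**Figure D2:**
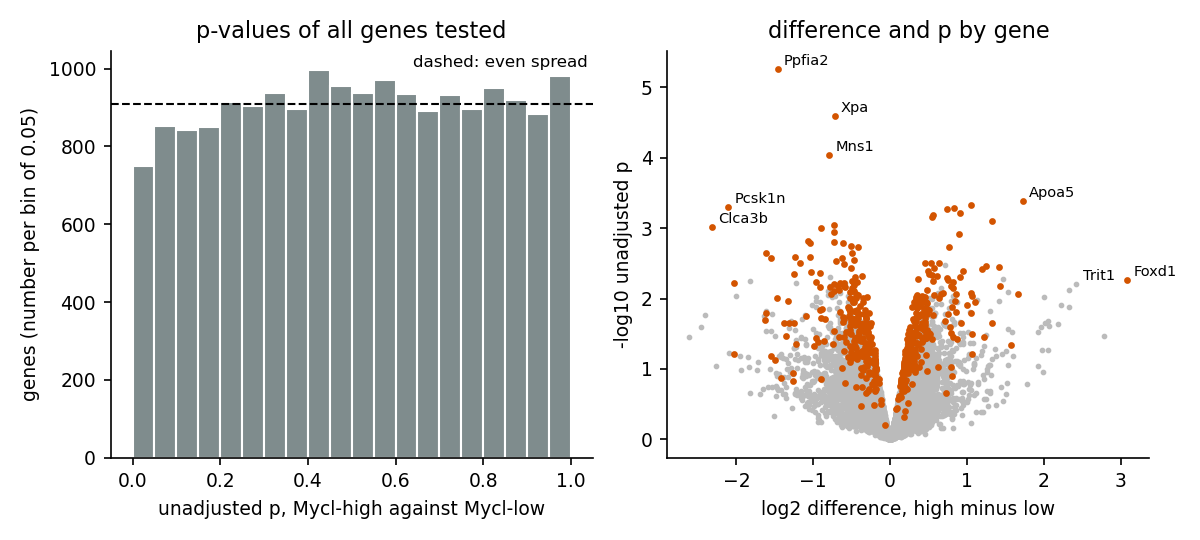
The left panel gives the number of genes (vertical axis) in each interval of the unadjusted limma p-value (horizontal axis) for Mycl-high against Mycl-low tumours, over 18192 genes. The interval under 0.05 holds 750 genes (4.12%), fewer than the dashed line of an even spread, and the right panel sets each gene's log2 difference against -log10 of its p, with genes whose sets do not overlap in orange.

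Measures of RNA quality had different means in the sets, with values that overlapped. The difference between the 3′ and 5′ Gapdh controls, which grows as RNA is shortened, was 0.14 ± 0.16 (SD, n = 4) in the Mycl-high and -0.02 ± 0.05 (SD, n = 4) in the Mycl-low tumours, with an exact two-sided permutation p of 0.0857. For actin it was 0.92 ± 0.31 and 0.58 ± 0.09 (SD, n = 4 each), with an exact permutation p of 0.0857. The smallest p this design allows is 0.0286. The part of RNA quality in the genes below was not tested beyond a fit with the Gapdh difference as a covariate, under which 0 genes were called. The fit without the covariate also called 0, so this count cannot show that part.

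The genes with the smallest p-values were lower in the Mycl-high set, and none of those named in this paragraph and the next passed the test. Ppfia2, a liprin scaffold of synapses, stood at 4.49, 4.00, 4.36 and 4.21 in tumours 9, 4, 2 and 3 and at 6.00, 5.57, 5.77 and 5.56 in tumours 8, 10, 7 and 6. The sets did not overlap, and the difference was -1.46 ± 0.16 (SE) with an unadjusted p of 5.54e-06 and an adjusted p of 0.125. The Mycl-high levels lay under 5.05, the highest lower quartile of any array, and so are not shown to be above background. The middle tumours read 4.56 and 4.15, the lungs 4.04 and 3.91, and the triple knockout tumours 11, 13 and 12 read 5.77, 5.22 and 5.15. A second Ppfia2 probe set differed by -0.27 (unadjusted p = 0.0602). Leaving out each tumour, or using other fits, gave Ppfia2 adjusted p-values from 0.0255 to 1.00, under 0.05 when all 15 arrays entered the fit (0.0255) or with a trended and robust prior (0.0338).

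Pcsk1n encodes proSAAS, an inhibitor of the prohormone convertase that matures neuropeptides in endocrine cells. It stood at 8.56, 7.47, 7.49 and 8.91 in the Mycl-high and at 10.92, 10.17, 9.41 and 10.36 in the Mycl-low tumours, with 9.68 and 9.14 in the middle tumours. The difference was -2.11 ± 0.41 (SE, adjusted p = 0.999). Clca3b, a member of a family of chloride channel accessory proteins, stood at 8.55, 7.41, 8.33 and 8.37 against 9.20, 11.55, 10.17 and 11.02, a difference of -2.32 ± 0.49 (SE, adjusted p = 0.999). Both were low in the normal lungs, where Pcsk1n read 6.30 and 5.62 and Clca3b 3.97 and 4.20.

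Among the other genes at this end, Mns1, a structural protein of cilia and sperm tails, differed by -0.79 ± 0.12 (SE, adjusted p = 0.835). Rfx2, a transcription factor of ciliated cells, differed by -1.06 and Cabcoco1 by -1.04. Tubb4a, a neuronal beta-tubulin, differed by -0.89 and Nrtn, the growth factor neurturin, by -0.73. Cenpb, which binds centromeres, Calcoco1 and Higd2a, a mitochondrial protein, differed by -0.73, -0.73 and -0.62. Xpa, a DNA repair protein, differed by -0.72 ± 0.09 (SE, adjusted p = 0.291) on its brightest probe set, but its other 2 probe sets differed by 0.22 and 0.12, so the probe sets disagree.

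At the other end, Apoa5, an apolipoprotein that governs plasma triglycerides, had the smallest p. It stood at 7.82, 8.64, 8.43 and 7.32 in the Mycl-high tumours 9, 4, 2 and 3 and at 6.43, 6.48, 6.51 and 5.88 in the Mycl-low tumours 8, 10, 7 and 6. The middle tumours followed the rank, with 7.17 in tumour 5 and 6.19 in tumour 1. The difference was 1.73 ± 0.32 (SE, adjusted p = 0.999). The triple knockout tumours did not keep this order: tumour 12, the lowest of the 3 in Mycl, read 8.21, and tumours 11 and 13 read 6.44 and 6.63. The mean level of 8 hepatocyte genes was 9.64 in tumour 12 and 5.99 and 5.98 in tumours 11 and 13. It was 5.58, 6.03, 7.55 and 5.83 in tumours 9, 4, 2 and 3 and 5.79 to 6.37 in the Mycl-low set. Any tie of Apoa5 to these genes was not tested.

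Lpcat2, an enzyme that makes phosphatidylcholine and platelet-activating factor, stood at 8.24, 8.19, 8.93 and 8.88 against 7.61, 7.63, 7.61 and 7.16. Its difference was 1.06 ± 0.20 (SE, adjusted p = 0.999), and the lungs read 7.64 and 7.74. Ly6k differed by 1.33, Itih5 by 0.90, Ptar1 by 0.83, Slc16a4, a monocarboxylate transporter family member, by 0.77 and Zdhhc13, a protein palmitoyltransferase, by 0.74. Shtn1, which acts in neuronal polarity, differed by 0.64, and Btaf1, an ATPase that removes TATA-binding protein from DNA, by 0.55. Pus1, a pseudouridine synthase of transfer RNA, differed by 0.55 and Lsm12 by 0.46. Rbm28, a nucleolar protein, differed by 0.91 on its brightest probe set and by -0.04 on the other, so this gene also has probe sets that disagree. Lpcat2 read -0.06 on its other probe set. For Ly6k (0.23), Itih5 (0.07 and 0.14), Slc16a4 (0.13), Calcoco1 (-0.02), Cenpb (-0.13) and Rfx2 (-0.01 to -0.33) the dimmer probe sets gave far smaller differences. Of the 24 genes named at both ends, 11 have 1 probe set and 13 several. In 3 of those 13, Ptar1, Btaf1 and Lsm12, another probe set differed the same way at an unadjusted p under 0.05, and in the other 10 none did. These genes were named for the smallest p among genes whose sets did not overlap, so the lack of overlap in them is not a result.

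**Figure D3:**
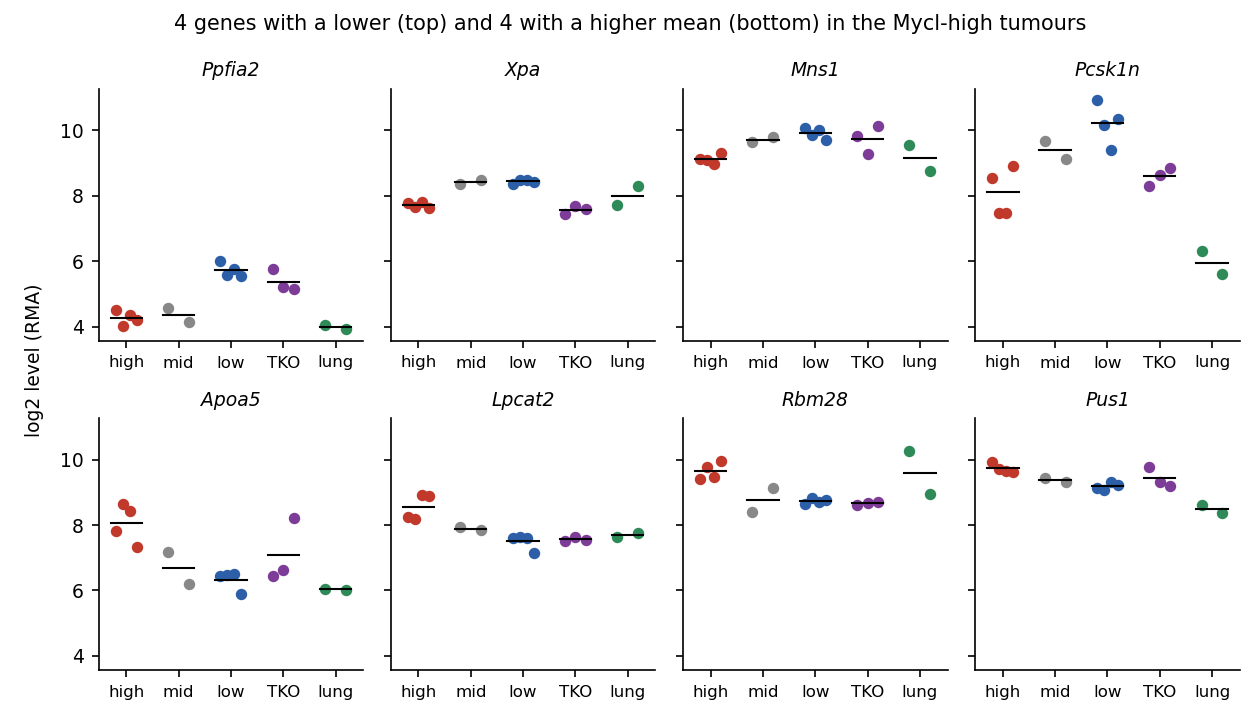
The log2 level (vertical axis) of 4 genes with a lower mean and 4 genes with a higher mean in the Mycl-high tumours, 1 point for each array in the Mycl-high, middle and Mycl-low sets, the triple knockout tumours (TKO) and the lungs, with a line at each mean. Ppfia2 lies between 4.00 and 4.49 in the Mycl-high and between 5.56 and 6.00 in the Mycl-low tumours, and Apoa5 between 7.32 and 8.64 against 5.88 and 6.51, while no gene passed the adjusted test.

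Pairs of tumours outside the compared sets were set beside these genes. Triple knockout tumour 11 exceeded tumour 12 by 1.59 in Mycl, and 493 of the 750 genes with an unadjusted p under 0.05 (65.7%) differed between them with the same sign as between the sets, against 55% of all genes. For tumour 13 minus 12, which differ by 0.96 in Mycl, the shares were 56.8% and 51.4%. For tumour 11 minus 13 they were 54.7% and 52.4%, and for the middle tumours 5 minus 1 they were 54.8% and 51.7%. Of the 24 genes named at the ends, 16, 14, 10 and 15 had the same sign in these 4 pairs. Each pair is 1 array against 1 array, and the pairs among triple knockout tumours share arrays, so these shares have no test. Tumours 5 and 1 also entered the fit through its estimate of the spread, so that pair is not wholly separate from the choice of the 750 genes.

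Of the other MYC family genes, neither Mycn nor Myc passed the test, and Mycn was highest in a Mycl-low tumour. Mycn stood at 7.37, 6.11, 6.34 and 7.82 in the Mycl-high and at 8.90, 6.91, 12.19 and 7.39 in the Mycl-low tumours 8, 10, 7 and 6. Tumour 7 was far above the rest, and the middle tumour 1, at 8.90, was level with tumour 8. The sets overlapped, and the difference was -1.94 ± 1.08 (SE, unadjusted p = 0.104). Rdh14 and Nbas, which lie 11 and 2 measured genes from Mycn on chromosome 12, were also highest in tumour 7, at 13.65 and 12.23 against at most 10.24 and 9.19 in the other Rb/p53 tumours. They were chosen after their values were seen. Of the 30 measured genes nearest to Mycn, 8 were at least 1 log2 unit above the median of the 10 tumours in tumour 7. The count was 0 to 2 in each other tumour, and 2.67% of all genes were at that height in tumour 7. The 8 were Rdh14 and, on the other side of Mycn, Ddx1, Nbas, Lratd1, Trib2, Lpin1, Ntsr2 and Greb1. The measured genes between Rdh14 and Mycn were not among them. Tumour 7 was the highest of the 10 in 10 of the 30 and the lowest in 3, among them Odc1 at 10.27.

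Myc stood at 7.07, 7.30, 8.61 and 8.12 against 7.78, 7.54, 7.24 and 8.12, a difference of 0.11 ± 0.33 (SE, unadjusted p = 0.758). Its sign turned under 8 of the alternatives. Max, the shared partner, differed by -0.21 ± 0.20 (SE, unadjusted p = 0.33). Over the 18 genes of the MYC network list, 0 passed the adjusted test, 1 (5.56%) was higher at an unadjusted p under 0.05, beside 1.94% of all genes, and the median difference was 0.07. That gene was Mlxipl, the carbohydrate response factor ChREBP, with a difference of 0.81 ± 0.26 (SE, unadjusted p = 0.0131).

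Several genes beside Mycl on chromosome 4 stood high in 3 of the 4 Mycl-high tumours and not in the other. Trit1, which modifies transfer RNA and is the next measured gene on one side, stood at 13.01, 12.72 and 12.34 in tumours 9, 4 and 2 but at 9.48 in tumour 3. The Mycl-low tumours 8, 10, 7 and 6 read 9.92, 9.41, 9.62 and 8.90, and the middle tumours 10.21 and 9.53. Tumour 3 thus lay within the range of the low set, and the sets overlapped, with a difference of 2.42 ± 0.69 (SE, adjusted p = 0.999). Without tumour 3 the difference was 3.23 (adjusted p = 0.0194), and with the 3 highest against the 3 lowest tumours it was 3.38 (adjusted p = 0.00607). Both settings take tumour 3, the Mycl-high tumour with low Trit1, out of the high set, so they are not separate results. Over all alternatives the adjusted p for Trit1 ran from 0.00607 to 1.00.

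Ppie, a cyclophilin of the spliceosome, had the same order, with 12.80, 12.53 and 12.08 in tumours 9, 4 and 2, 9.06 in tumour 3 and 8.95 to 10.34 in the low set. Mfsd2a, a transporter of lysophosphatidylcholine, stood at 8.87, 9.89, 8.82 and 6.95 in tumours 9, 4, 2 and 3 and at 5.31 to 7.37 in the low set. Bmp8b, a bone morphogenetic protein, stood at 10.50, 9.69, 9.02 and 7.86 against 6.59 to 8.29. Ppt1, a lysosomal thioesterase, read 12.41, 12.43, 11.58 and 9.41, and Cap1, an actin regulator, 13.87, 13.87, 12.51 and 10.74. In each of these genes tumours 9, 4 and 2 were above every Mycl-low tumour and tumour 3 was not.

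Of the 30 measured genes nearest to Mycl, 15 on each side, 0 passed the adjusted test and 6 (20%) had an unadjusted p under 0.05, beside 4.12% of all genes. The 5 higher were Trit1, Mfsd2a, Bmp8b, Ppie and 9530002B09Rik, and the 1 lower was Smap2 (-0.44), named after its values were seen. Their median difference was 0.22. Counted by tumour, the number of these 30 genes at least 1 log2 unit above the median of the 10 tumours was 7 in tumour 9, 13 in tumour 4, 9 in tumour 2 and 1 in tumour 3. It was 1 and 0 in the middle tumours 5 and 1, 4 in tumour 8, and 0 in tumours 10, 7 and 6. Among all genes the share at that height was 1.02% to 3.14% per Rb/p53 tumour.

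The extent of the high stretch also varied. Pabpc4, Akirin1, Mycbp and Rragc, farther from Mycl and named after their values were seen, were high in tumours 4 and 2 but not in tumour 9. Akirin1, for example, read 11.09, 13.33, 13.15 and 11.93 in tumours 9, 4, 2 and 3 and 11.44 to 11.90 in the low set. In tumour 8 of the low set, Hpcal4, Heyl, Pabpc4 and Macf1 read 8.33, 9.49, 13.05 and 12.20, above the other 3 low tumours in each. Among the triple knockout tumours, tumour 11 had 3 such genes, Trit1 reading 11.17 there, 10.11 in tumour 13 and 9.46 in tumour 12.

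**Figure D4:**
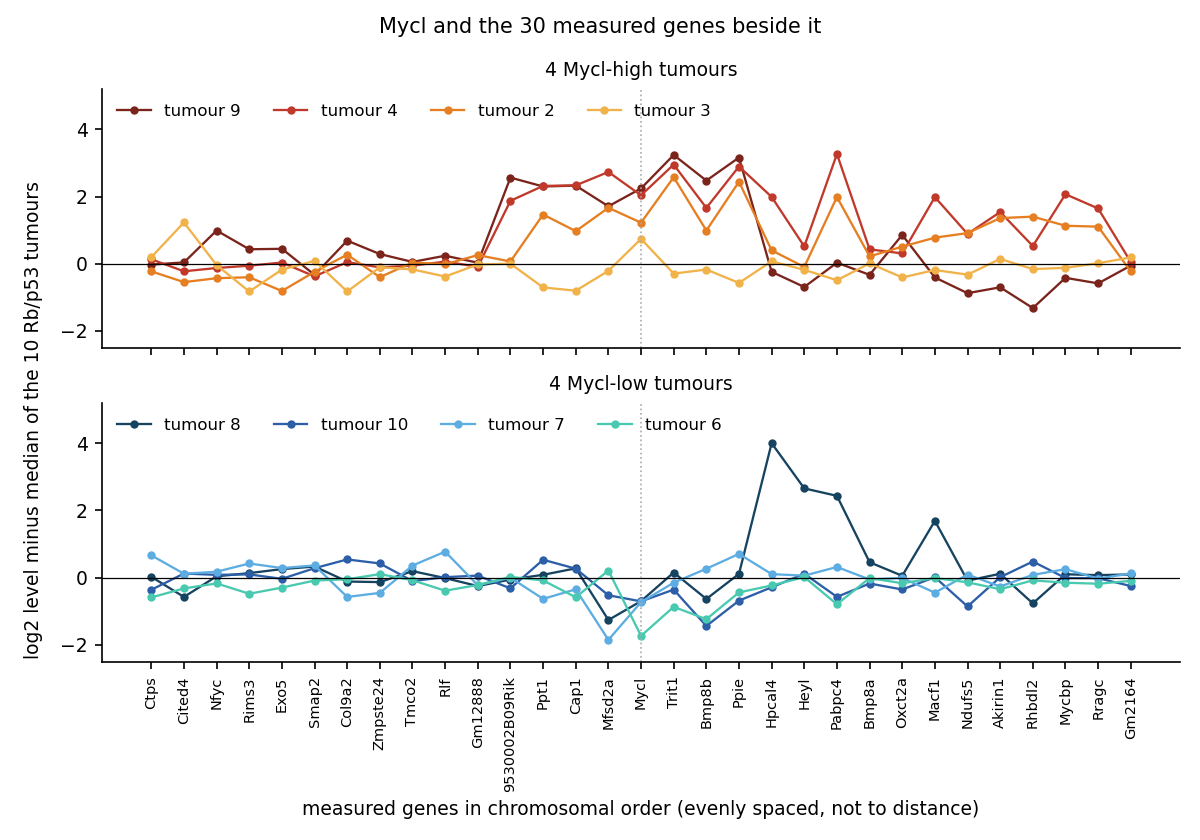
The level of each of the 30 measured genes nearest to Mycl, and of Mycl (dotted line), as the log2 level minus the median of the 10 Rb/p53 tumours (vertical axis), in gene order along chromosome 4 and not to distance, with 1 line per tumour, the Mycl-high set above and the Mycl-low set below. Tumours 9, 4 and 2 have 7, 13 and 9 genes at least 1 log2 unit above the median and tumour 3 has 1, although all 4 are in the Mycl-high set.

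Over the 10 Rb/p53 tumours, the genes most like Mycl were sought among 3537 genes with an SD over 0.5. Likeness is given as Pearson's r, Spearman's rho and r without tumours 9 and 4, the 2 farthest from the median in Mycl, and as a description of 10 arrays with no p. Apoa5 led with r of 0.925, rho of 0.842 and r of 0.932 without the 2 tumours, followed by the neighbour Trit1 with 0.901, 0.806 and 0.748. Bmp8b, also a neighbour, had r of 0.882, Prom2, a membrane protein of epithelial cells, 0.879, and Apex1, the main endonuclease of base excision repair, 0.878. Tnpo2, a nuclear import receptor, had 0.856, Muc2, a secreted mucin, 0.832, Rbm20, a splicing regulator, 0.831, Pitpnc1, a lipid transfer protein, 0.825, and Slc6a13, a GABA transporter, 0.817. For Muc2, r without the 2 tumours was 0.545. Between the sets, Prom2 differed by 0.83 on its brightest probe set and by -0.14 on the other, so its probe sets disagree.

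At the opposite end were Efcab12 with r of -0.831, Clgn, a chaperone best known from the testis, with -0.822, Mlf1 with -0.818, Pcsk1n with -0.814 and Matn2, a matrix protein, with -0.787. Clgn stood at 4.93, 4.91, 5.48 and 5.63 in the Mycl-high and at 7.55, 8.20, 5.97 and 7.36 in the Mycl-low tumours, with 5.24 and 7.70 in the middle tumours 5 and 1. Its difference was -2.04 ± 0.58 (SE, adjusted p = 0.999), and the lungs read 4.95 and 5.25. Efcab12 differed by -1.05 on its brightest probe set and by only -0.18 on the other.

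The promoters of 3 of the 10 most like genes held the E-box, and are shown because CACGTG is the sequence at which MYC and MAX bind. Each is the 250 bases before the gene start on the gene's own strand, from RefSeq for GRCm38.p6, with CACGTG in capitals. The positions are chr9:46268358-46268607 (plus strand) for Apoa5, chr14:50924699-50924948 (plus strand) for Apex1 and chr8:85036643-85036892 (plus strand) for Tnpo2.
Apoa5: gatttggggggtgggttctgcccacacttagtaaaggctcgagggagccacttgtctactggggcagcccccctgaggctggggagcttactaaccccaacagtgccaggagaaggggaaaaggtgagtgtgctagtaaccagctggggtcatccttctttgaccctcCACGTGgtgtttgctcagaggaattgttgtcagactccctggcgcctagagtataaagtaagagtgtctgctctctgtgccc
Apex1: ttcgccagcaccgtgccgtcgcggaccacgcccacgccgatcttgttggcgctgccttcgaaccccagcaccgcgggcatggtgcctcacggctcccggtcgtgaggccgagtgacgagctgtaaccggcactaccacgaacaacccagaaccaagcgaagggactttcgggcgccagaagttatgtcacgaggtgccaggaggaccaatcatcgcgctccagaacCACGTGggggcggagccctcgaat
Tnpo2: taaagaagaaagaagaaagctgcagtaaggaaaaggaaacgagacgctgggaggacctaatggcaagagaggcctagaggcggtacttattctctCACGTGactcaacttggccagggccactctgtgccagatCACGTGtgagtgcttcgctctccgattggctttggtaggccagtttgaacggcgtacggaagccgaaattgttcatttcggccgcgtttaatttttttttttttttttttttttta
Apoa5 and Apex1 hold 1 match each and Tnpo2 holds 2. The motif reads the same on both strands.

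The motif was counted over the same 250 bases of all genes with a promoter in the RefSeq table. It was found in 1262 of 14451 (8.73%). Among genes higher in the Mycl-high set at an unadjusted p under 0.05 it was in 30 of 275 (10.9%), among those lower in 27 of 328 (8.23%), and in the ribosome biogenesis list in 2 of 27 (7.41%). Of the 10 most like genes 9 had a promoter in the table and 3 held it. A match says only that these letters occur in the window.

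The lists of genes that MYC proteins are known to drive showed small medians, and 0 of their members passed the adjusted test. Of 31 ribosome biogenesis genes, 24 had a positive difference and the median was 0.11, beside 0.0018 over all genes. Gnl3, or nucleostemin, was the 1 member (3.23%) higher at an unadjusted p under 0.05, by 0.71 ± 0.25 (SE). Ncl and Npm1, abundant nucleolar proteins, differed by -0.02 ± 0.24 and 0.11 ± 0.24 (SE). Of 27 metabolic and translation targets 22 had a positive difference, the median was 0.25, and 3 (11.1%; Ppat, Hspd1 and Hspe1) were higher at an unadjusted p under 0.05, beside 1.94% of all genes. Without tumours 7 and 8, a setting chosen after seeing the data, the medians of these lists were 0.32 and 0.41. Tumours 7 and 8 had the highest means of the low set in both lists, so leaving them out had to raise the mean difference. Tumour 7, of the Mycl-low set, had the highest mean level of the 10 Rb/p53 tumours in both lists, 9.98 and 11.02. The Mycl-high tumours ran from 9.52 to 9.83 and from 10.55 to 10.99. Ppat, the first enzyme of purine synthesis, differed by 0.58 ± 0.22 (SE), and Hspd1 and Hspe1, a mitochondrial chaperonin pair, by 0.38 and 0.42. The other Ppat probe sets differed by 0.03 and 0.21. Odc1, the polyamine synthesis enzyme often used as a MYC target, differed by 0.27 ± 0.30 (SE).

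In the cholesterol and fatty acid synthesis list, 4 of 16 members (25%) were higher at an unadjusted p under 0.05, beside 1.94% of all genes, and 0 passed the adjusted test. The median difference was 0.23. Fdft1, which makes squalene, stood at 11.11, 10.95, 11.31 and 11.64 in the Mycl-high and at 10.80, 10.34, 10.21 and 10.67 in the Mycl-low tumours, with no overlap and a difference of 0.75 ± 0.21 (SE). Its other 3 probe sets differed by 0.07 to 0.32, none at an unadjusted p under 0.05. Hmgcs1, Insig1 and Cyp51, of the same pathway or its feedback, differed by 0.46, 0.46 and 0.38. Fasn, Acly and Scd2, of fatty acid synthesis, differed by -0.28, 0.02 and 0.25.

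The neuroendocrine list leaned the other way. Of 27 genes, 22 had a negative difference, the median was -0.27, and 3 (Uchl1, Syt1 and Syp) were lower at an unadjusted p under 0.05, beside 2.18% of all genes. Uchl1, a neuronal ubiquitin hydrolase, stood at 11.56, 11.11, 10.59 and 10.50 in the Mycl-high and at 11.80, 11.63, 12.16 and 11.36 in the Mycl-low tumours, so that tumour 9 overlapped the low set. Its difference was -0.80 ± 0.26 (SE, adjusted p = 0.999), and Syt1 and Syp, of synaptic vesicles, differed by -0.63 and -0.60. The other Syp probe set differed by 0.19, so the probe sets of Syp disagree. Insm1 differed by -0.60 ± 0.41, Chga, chromogranin A, by -0.57 ± 0.52 and Ncam1 by -0.25 ± 0.27 (SE). Grp, the neuropeptide gastrin-releasing peptide, went against the list. It stood at 9.88, 8.77, 8.58 and 8.49 in the Mycl-high and at 6.83, 5.71, 9.20 and 6.06 in the Mycl-low tumours, a difference of 1.98 ± 0.90 (SE, unadjusted p = 0.0539), with tumour 7 inside the Mycl-high range.

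Of 26 synapse and axon genes 0 had an unadjusted p under 0.05, and the median was -0.15. Of 19 genes of the neuronal NEUROD1-type list 1 (5.26%) did, beside 4.12% of all genes. It was Nefl, a neurofilament chain, which differed by -2.61 ± 1.06 (SE) and was highest in tumour 7 at 12.15. The list as a whole was split, with 10 members positive, 9 negative and a median of 0.0063. Neurod1 itself stood at 6.40 in tumour 8 and at most 4.98 in the other Rb/p53 tumours. Of 24 genes of Notch and non-neuroendocrine cells 1 (4.17%) had an unadjusted p under 0.05, near the 4.12% of all genes. It was Zeb1, a repressor of epithelial genes, with a difference of -1.32 ± 0.48 (SE, adjusted p = 0.999). The other Zeb1 probe sets differed by -1.04, -0.20 and -0.05. Of 9 tuft-like genes 1 (11.1%) had an unadjusted p under 0.05, beside 4.12% of all genes. It was Dclk1, which did not pass the adjusted test, with a difference of -1.22 ± 0.53 (SE, adjusted p = 0.999) and tumour 8 the highest at 9.85.

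Of 28 G2/M genes and 30 G1/S and replication genes 0 had an unadjusted p under 0.05, with medians of 0.07 and 0.06. Without tumours 7 and 8, a setting chosen after seeing the data that leaves tumours 10 and 6 in the low set, the medians were 0.65 and 0.46. Mki67 stood at 13.00, 12.76, 12.77 and 12.19 in the Mycl-high and at 12.79, 12.33, 13.40 and 12.19 in the Mycl-low tumours, a difference of 0.00 ± 0.29 (SE). The low set was split: the mean level of G2/M genes was 10.91 and 11.28 in tumours 8 and 7 but 10.05 and 10.02 in tumours 10 and 6. Leaving out tumours 8 and 7 thus had to raise the mean difference, and the larger medians are no separate result.

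Other programmes gave 0 called genes each. Of 18 hypoxia and glycolysis genes 16 were positive with a median of 0.15, and Hk2, the first enzyme of glycolysis, differed by 0.68 ± 0.25 (SE, unadjusted p = 0.0222) and its isoform Hk1 by -0.27 (unadjusted p = 0.0472). The median was -0.0024 for 15 oxidative phosphorylation genes, 0.40 for 16 interferon response genes and 0.27 for 18 immediate early genes, with 0 at an unadjusted p under 0.05 in each. Of 10 MHC class I genes 1 (10%) had an unadjusted p under 0.05, beside 4.12% of all genes. It was Nlrc5, their transcriptional activator, with a difference of 0.82 ± 0.34 (SE, adjusted p = 0.999). The list as a whole was split, with 4 members positive, 6 negative and a median of -0.12. Of 6 MHC class II genes 0 had an unadjusted p under 0.05.

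Outside the lists, and named after its values were seen, Foxd1, a forkhead factor, had a difference of 3.09 ± 0.86 (SE, adjusted p = 0.999). It stood at 8.06, 9.24, 7.80 and 9.84 in the Mycl-high and at 5.24, 4.83, 7.77 and 4.74 in the Mycl-low tumours, so tumour 7 nearly reached the Mycl-high range. Id1, Id2 and Id3, inhibitors of basic helix-loop-helix factors, differed by 1.33, 0.95 and 1.66, and Id4, of the same family, by -0.47.

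Markers of other cell types varied widely within each set. The mean level of 14 alveolar type 2 genes ran from 9.62 to 11.52 in the Mycl-high and from 9.00 to 11.67 in the Mycl-low tumours, against 12.69 and 13.00 in the lungs. In the low set tumours 8 and 7 read 9.00 and 9.20 and tumours 10 and 6 read 11.50 and 11.67. Sftpc, surfactant protein C, read 10.89 and 11.99 in tumours 8 and 7 and 14.21 and 14.50 in tumours 10 and 6. Over all 8 tumours the median difference of the alveolar type 2 genes was 0.06. Without tumours 7 and 8, a setting chosen after seeing the data, this median was -1.19. Tumours 7 and 8 had the lowest mean levels of the low set, so leaving them out had to lower the mean difference. None of 14 alveolar type 2, 14 alveolar type 1 or 22 endothelial genes had an unadjusted p under 0.05. The same held for 18 macrophage and dendritic, 8 neutrophil and 16 T and NK cell genes, and for the cardiac muscle, erythroid, hepatocyte and adipocyte lists.

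Single members had an unadjusted p under 0.05, which 4.12% of all genes had, in 4 lists. They were Aldh1a7 (0.62) of 12 club and secretory genes and Mlf1 (-0.96) of 19 ciliated genes. The others were Eln (-0.57) of 22 fibroblast and smooth muscle genes and Upk1b (0.42) of 6 mesothelial genes. Aldh1a7 went against its list, in which 10 members were negative and 2 positive, with a median of -0.41. The ciliated list was split, with 8 members positive, 11 negative and a median of -0.04. Of 12 B and plasma cell genes, Ighm and Pax5 (0.38) had an unadjusted p under 0.05. Ighm, the immunoglobulin heavy chain, stood at 10.19, 10.88, 10.34 and 11.24 against 8.29, 9.07, 6.46 and 10.56, a difference of 2.06 ± 0.77 (SE) on its brightest probe set, and read 13.41 and 13.25 in the lungs. Of the 11 Ighm probe sets 5 had a negative difference and 2 an unadjusted p under 0.05, with the other 10 between -0.51 and 1.49, so they disagree. Eif2s3y, a gene of the Y chromosome, was at 9.83 in tumour 9 of the Mycl-high set and at 9.63 and 10.23 in tumours 10 and 7 of the Mycl-low set, and at most 4.13 in the other 5 compared tumours. The part of these cell types and of sex in the differences above was not tested beyond fits with the alveolar type 2, macrophage or Xist level as a covariate, under each of which 0 genes were called. The fit without a covariate also called 0, so these counts cannot show that part.

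**Figure D5:**
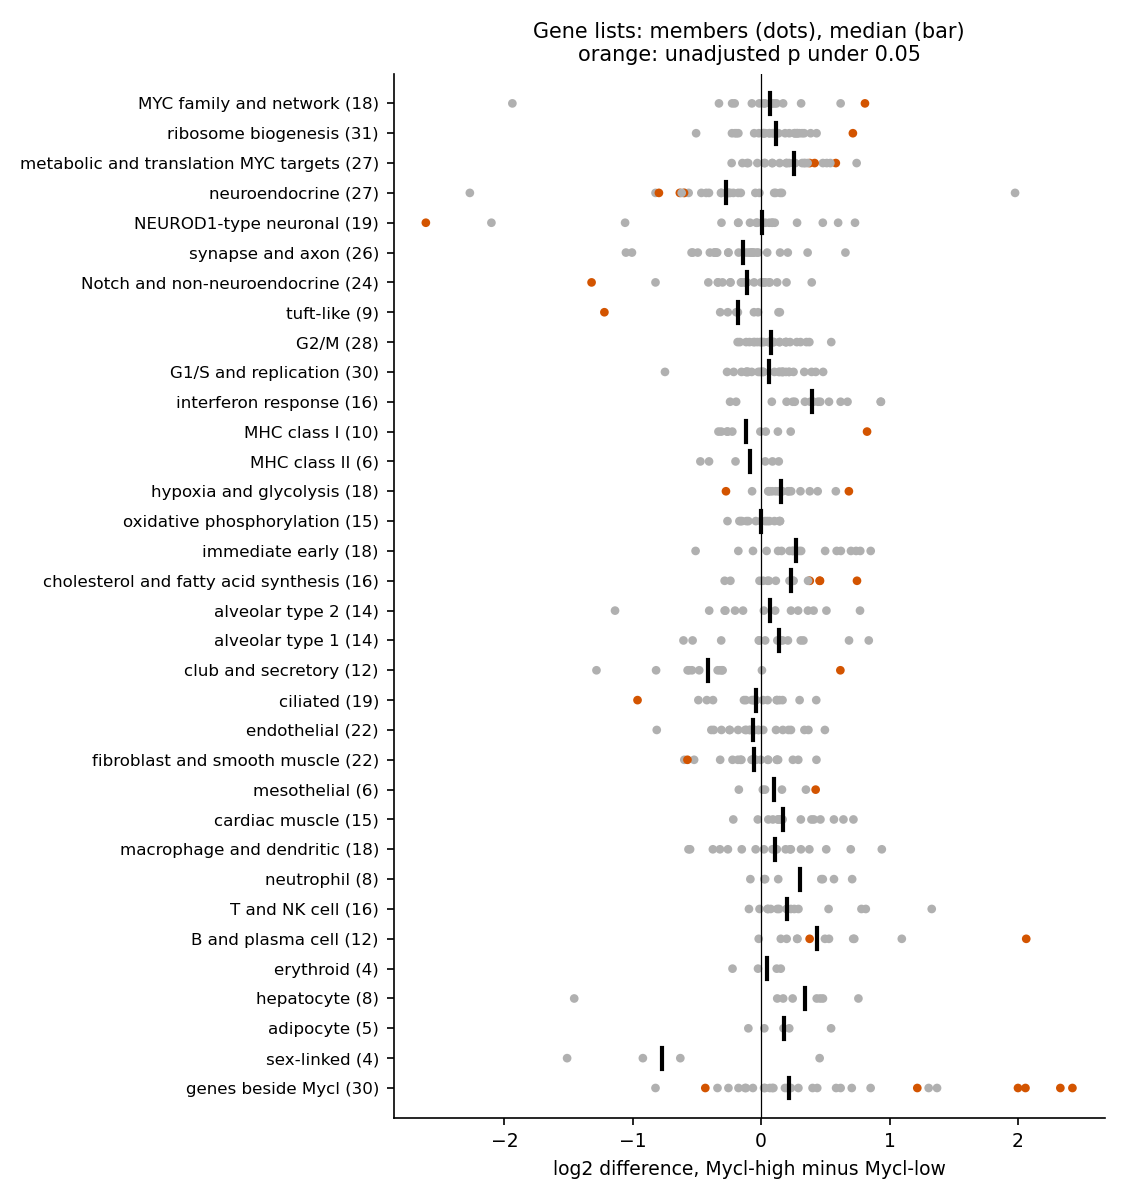
The log2 difference between Mycl-high and Mycl-low tumours of each measured member (dots, orange at an unadjusted p under 0.05) and the median (bar) of each gene list, with the number measured in brackets. The median is 0.0018 over all genes, 0.25 for metabolic MYC targets and -0.27 for neuroendocrine genes, and 0 members passed the adjusted test in any list.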

How the data were processed

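Total RNA was isolated with Trizol and amplified with a RiboAmp kit before hybridisation, per the labels' protocols. The authors deposited RMA log2 values for 45101 probe sets on 15 arrays, per the submitters' processing notes; the RMA version and the scan batches are not given in the sources used here. RMA makes array distributions nearly equal (medians 6.58 to 6.68), so a shift shared by most genes cannot be seen. The 64 control probe sets were left out. Of the probe sets, 34945 had 1 gene symbol, 932 several and 9160 none, by the platform annotation, and 34741 were matched by gene ID to RefSeq (GRCm38.p6). A gene was read through its brightest probe set (18193 genes).

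limma 3.58.1 (R 4.3.3; lmFit and eBayes, two-sided) was fitted to the 10 Rb/p53 tumours in 3 sets, with 4 high, 2 middle and 4 low, and Benjamini-Hochberg adjustment over 45034 probe sets without the 3 of Mycl; the threshold was 0.05. The script was tested on simulated data. Control 3′ to 5′ differences had exact permutation tests. How precise the values are depends on how many arrays there are.

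The members and gene lists were chosen with earlier results of these data known. Of 576 entries in 33 lists, 538 were measured; the others are not analysed here. Named by rule were Myc, Mycn and Max, 12 genes at each end with the smallest p among genes whose sets did not overlap, the member of each list with the smallest p, 5 neighbours of Mycl on each side, and the 10 genes most and 5 least like it; any other gene was chosen after its values were seen. Alternatives were other sets, fits, scalings, filters, probe rules and covariates, and leaving out each tumour.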

Additional observations from a re-analysis of the deposited data

Results flagged for a closer look

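For Mycl and some of the 80 genes named by rule, 76 sets of 4 tumours were examined. Of these, 8 held 1 tumour whose distance from the other 3 was above Dixon's critical value of 0.829 of the set's range. Chance flags about 1 in 20 such sets where the values chose neither the set nor the gene. The sets were chosen by Mycl, and the 24 genes at the ends for small p and no overlap. The rate does not hold for Mycl or those genes. Tumour 6 was lowest in the Mycl-low set for Mycl (9.39, the others 10.39 to 10.42), for Apoa5 (5.88, the others 6.43 to 6.51) and for Lpcat2 (7.16, the others 7.61 to 7.63). Tumour 8 was highest in that set for Hpcal4 (8.33, the others 4.04 to 4.43), for Heyl (9.49, the others 6.86 to 6.95) and for Calcoco1 (7.40, the others 6.94 to 7.00). Tumour 10 was highest there for Gm12888 (4.50, the others 4.19 to 4.22), at levels not shown to be above background. In the Mycl-high set tumour 2 was lowest for Calcoco1 (6.05, the others 6.43 to 6.48).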

How the results depend on the processing

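Over 32 alternatives the count of genes called was 0 in 28, among them an adjusted p under 0.10, and 1 in the other 4. The 1 gene was Trit1 without tumour 3 (3.23) and with the 3 highest against the 3 lowest tumours (3.38). Both of these settings take tumour 3 out of the Mycl-high set. The 1 gene was Ppfia2 (-1.46) with all 15 arrays in the fit and with a trended and robust prior. Leaving out each tumour gave 0 to 1 genes called and 531 to 1139 at an unadjusted p under 0.05, the 1139 without tumour 7. That count, 750 as reported, was 413 over probe sets above the median level, which tests fewer genes, 1850 with array weights and 1862 without tumours 7 and 8, an alternative chosen after seeing the data; the cause of the last 2 was not tested. Without tumours 7 and 8 the medians were 0.65 for G2/M, 0.46 for G1/S, -1.19 for alveolar type 2, -1.68 for club and secretory and -1.08 for MHC class II genes. In each of these lists tumours 7 and 8 lay at the same end of the low set, so the direction of the shift was fixed in advance. Of 2374 values of named genes 2345 kept their direction and side of the threshold, 4 passed it and 25, over 7 genes, turned sign; the cause was not tested.

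Myc turned to -0.17 without tumour 2, -0.0078 without tumour 3, -0.036 without tumour 7, -0.20 with array weights, -0.17 with the Gapdh covariate and -0.052 without tumours 7 and 8. Hpcal4 turned to 0.69 without tumour 8, 0.86 with 3 against 3 tumours, 0.68 with either other Mycl probe set, 0.48 with array weights, 0.062 with the Gapdh covariate and 0.82 without tumours 7 and 8. As a slope per log2 unit of Mycl, over 10 and over 13 tumours (the latter with genotype, added after seeing the data), Myc was -0.078 and -0.082, Hpcal4 0.027 and 0.023 and Eif2s3y 0.079 and 0.079. Eif2s3y was 0.36 and Max 0.11 with the Gapdh covariate, and Max was 0.028 with 3 against 3 tumours. H2-Eb1 was 0.00067 without tumour 10, Slc4a1 0.084 over the mean of its probe sets and Rbm28 -0.039 without probe sets that can match several transcripts. Leaving out each tumour gave ranges of -0.17 to 0.34 for Myc, -0.82 to 0.69 for Hpcal4 and -0.94 to 0.00067 for H2-Eb1. No paired analysis was possible because the compared tumours belong to 1 labelled group and share no replicate number.

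With 4 against 4 tumours and a median standard error of 0.19, small differences in single genes were not detectable, and probe sets under about 5.05 give no level shown to be above background.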
